A study of Mus musculus with 30 samples.

Results

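The immunoglobulin heavy chain variable genes (Ighv) of splenic B cells were examined in young Ikzf3-L161R homozygous mice and in young wild-type mice. All genes whose symbol begins with Ighv in the deposited expression table of the young mice were taken, which gave 120 of its 26266 named genes. The table of the aged mice lists 0 Ighv genes among its 22806 entries, so the young mice are the whole basis of what follows. In all, 18 RNA-seq libraries (6 young, 12 aged) and 12 chromatin assays make up the 30 samples of the series. Of the young libraries, 3 are from mice homozygous for Ikzf3-L161R (homozygous 1 to 3), a knock-in allele whose expression is restricted to B cells, and 3 are from wild-type mice (wild-type 1 to 3). All 6 are from C57BL/6 mice of 2 to 3 months, and both groups were prepared alike: spleen B cells were selected with magnetic beads after red cell lysis and sequenced from total RNA. The Cre line that restricts the allele to B cells is not given in the sources used here. The labels do not say that each library is a separate animal, so p-values measure the spread between these libraries, which may be technical. Aiolos, the protein encoded by Ikzf3, is a zinc finger protein that regulates transcription in lymphocytes.

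Each B cell assembles its heavy chain by joining 1 V, 1 D and 1 J segment, and the chosen V segment encodes most of the antigen-binding domain. The V genes lie in a long array upstream of the D and J segments and of the constant genes, so a V gene is near to (proximal) or far from (distal) the segments it is joined to. Their first number gives the family, a group related in sequence. In RNA from many B cells, the share of a V gene in all V transcripts reflects how many cells use it and how much heavy chain RNA those cells make, and these cannot be told apart in bulk samples. B cells that have become plasma cells make far more of this RNA per cell than resting B cells, and an expanded clone raises its own V gene.

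All 120 Ighv genes were found in RefSeq on chromosome 12 of GRCm38.p6 (the assembly of mm10), all annotated as functional V segments in place of pseudogenes. They span 113578504 to 116009954, that is 2.43 Mb, and lie above Ighm (113418826 to 113422730) in coordinate. Ighv5-2 (113578504 to 113578990) is the most proximal. Family Ighv1 has 60 members. Families Ighv5 and Ighv8 have 10 each, Ighv2 has 9, Ighv3 has 6, Ighv6 has 5, and Ighv9 and Ighv14 have 4 each. The other 8 families have 1 or 2 members.

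Levels are in TPM, in which each gene is scaled by its length and each library to the same total. The Ighv values were whole multiples of the worth of 1 read or read pair within 0.02 reads for all 120 members, which gives the depth behind them. Ighv genes took 105656, 103161 and 80567 reads in homozygous 1 to 3, against 305682, 292492 and 124813 reads in wild-type 1 to 3. The wild-type libraries, and most of all wild-type 1 and 2, were thus read more deeply at this locus. At 10 TPM in a gene of 294 bp, counting alone gives an error of 13.1% in homozygous 1 and 8.29% in wild-type 1. At 1000 TPM it gives 1.31% and 0.829%.

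The groups also differed in other respects. Xist was at 80.9 and 63.1 TPM in wild-type 1 and 2 and at no more than 0.0567 TPM in the other 4 libraries, whereas the Y-linked Ddx3y was at 107, 133 and 148 TPM in homozygous 1 to 3 and at 54.3 TPM in wild-type 3. Sex therefore cannot be told apart from genotype except through wild-type 3. Of 20 markers of myeloid cells, 18 were tested, of which 0 were higher and 6 were lower in homozygous libraries, where 38.4% of all genes tested were called higher and 12.6% lower. The counts were 0 and 10 after scaling by the trimmed mean of M values (TMM), where 2930 of all 12219 genes tested were called higher and 2756 lower. The median log2 change of these markers was -1.65, and -0.66 without wild-type 1 and 2. Their summed level was 338 to 751 TPM in homozygous, against 1727 to 6269 TPM in wild-type libraries. Lyz2 was at 163, 129 and 58.2 TPM in homozygous 1 to 3, against 1443, 2330 and 222 TPM in wild-type 1 to 3, and S100a8 at 59.1, 38.4 and 12.2 TPM, against 310, 948 and 381 TPM. Of 10 T cell markers, 0 were higher and 2 were lower (0 and 3 after TMM scaling), with sums of 43.8 to 52.9 TPM in homozygous, against 49.4 to 100 TPM in wild-type libraries. The median log2 change of the T cell markers was -0.99, and -1.26 without wild-type 1 and 2. No listed marker of either kind was at 0 in all libraries. Cd79a, which encodes a part of the B cell receptor complex and marks B cells, was at 2909, 2706 and 2923 TPM in homozygous 1 to 3 and at 3020, 2744 and 3141 TPM in wild-type 1 to 3. Ikzf3 itself was at 381, 422 and 438 TPM in homozygous, against 250, 214 and 276 TPM in wild-type libraries, a level that does not show the base change. The part of sex, depth and other cells in the Ighv results was not tested. Values from a fit with wild-type 1 and 2 left out are given for the called Ighv genes and, as medians, for most gene lists. They are not given for every other gene named. That fit compares the 3 homozygous libraries with wild-type 3 alone, so its spread comes from the homozygous libraries and wild-type 3 is assumed to vary like them; its p-values are no check on the spread among wild-type libraries.

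The summed Ighv level was close in both groups. It was 17406, 19102 and 14952 TPM in homozygous 1 to 3, against 20368, 19276 and 15119 TPM in wild-type 1 to 3, with means of 17153 ± 2087 and 18254 ± 2770 TPM (SD, n = 3 each). The groups overlapped, and the lowest sum of each group was nearly the same. V transcripts made up between 1.50% and 1.91% of all TPM in homozygous libraries and between 1.51% and 2.04% in wild-type libraries. Ighm, the constant gene of IgM, was at 9496, 10412 and 9301 TPM in homozygous 1 to 3 and at 9594, 8611 and 7313 TPM in wild-type 1 to 3 and did not pass the test (adjusted p = 0.169, limma). Summed Ighv TPM per Ighm TPM was 1.83, 1.83 and 1.61 in homozygous libraries and 2.12, 2.24 and 2.07 in wild-type libraries. These ratios did not overlap, and every homozygous library was below every wild-type library.

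Diversity of use was also close. Of the 120 members, 117, 116 and 115 had a value above 0 in homozygous 1 to 3, and 117, 117 and 115 in wild-type 1 to 3. The effective number of V genes, which is the exponential of the Shannon entropy of the shares and counts how many equally used genes would give the same evenness, was 60.4, 60.1 and 57.6 in homozygous libraries, against 56.8, 56.9 and 61.7 in wild-type libraries. The lowest homozygous value was above 2 of the wild-type values and the highest value was that of wild-type 3, so the groups overlapped. The 10 most used genes of each library held 37.3%, 37.5% and 40.7% of V transcripts in homozygous 1 to 3 and 40.6%, 39.6% and 35.9% in wild-type 1 to 3.

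**Figure D1:**
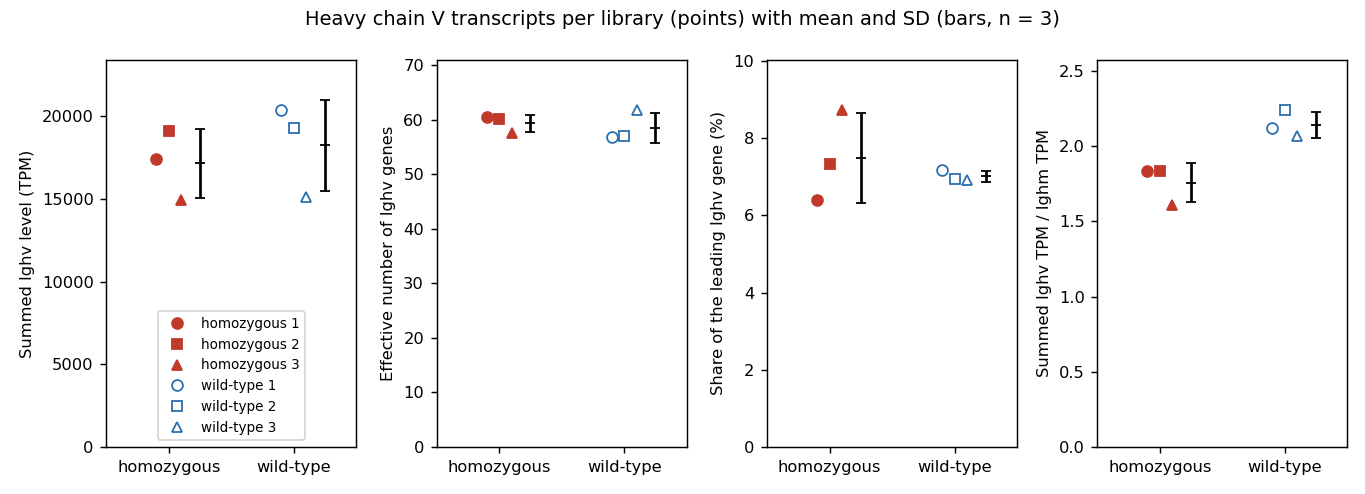
Summed Ighv level (TPM), effective number of Ighv genes, share of the leading Ighv gene (%) and summed Ighv TPM per Ighm TPM in each library, with homozygous libraries as filled red and wild-type libraries as open blue symbols and with mean and SD as bars (n = 3). Of the 4 measures, the last is the one whose groups do not overlap (1.61 to 1.83 against 2.07 to 2.24).

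Use was uneven in every library, although the leading gene was not the same in all. Averaged over the 6 libraries, the 5 most used genes held 22.6% of V transcripts, the 10 most used 35.7% and the 20 most used 56.2%, and 17 genes were enough to pass 50%. The median gene held 0.485%. Ighv1-26 (114788372 to 114788665) led with 6.41%, 6.50% and 6.52% in homozygous 1 to 3, against 7.17%, 6.94% and 6.93% in wild-type 1 to 3. Each homozygous library was below each wild-type library, but the difference was small and did not pass the test on shares (log2 change -0.11, SE 0.07, adjusted p = 0.217, limma). In TPM the groups overlapped. Shares are parts of the same sum, so Ighv2-3, at 8.72% in homozygous 3, lowers that library's other shares. The separation of Ighv1-26 in shares depends on this. Ighv3-6 (114288152 to 114288447) was the next, with 5.53%, 7.33% and 5.04% in homozygous libraries and 5.10%, 5.37% and 4.94% in wild-type libraries. It was the leading gene of homozygous 2, and its groups overlapped.

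The other genes of highest mean share were Ighv6-3, Ighv9-3, Ighv1-9, Ighv1-80, Ighv1-53, Ighv1-82, Ighv1-64 and Ighv1-81. None of these 8 passed the test on TPM or on shares. Ighv6-3 held 4.17%, 3.96% and 3.12% in homozygous 1 to 3 and 4.98%, 3.66% and 3.42% in wild-type 1 to 3. Ighv9-3 held 3.57%, 3.28% and 3.91% in homozygous and 3.01%, 3.12% and 3.43% in wild-type libraries. For both genes the ranges of the groups overlapped. Ighv1-80, near the distal end, held 2.43%, 1.76% and 1.85% in homozygous libraries and 3.39%, 5.19% and 2.24% in wild-type libraries, where wild-type 2 stood well above the rest. Ighv1-53 held 2.60%, 2.64% and 2.37% in homozygous and 3.90%, 2.65% and 2.66% in wild-type libraries, which left a gap of less than 0.1 percentage points between the groups. Ighv1-81 held 1.92%, 2.65% and 1.74% in homozygous and 3.85%, 2.19% and 2.06% in wild-type libraries, with wild-type 1 the highest.

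**Figure D2:**
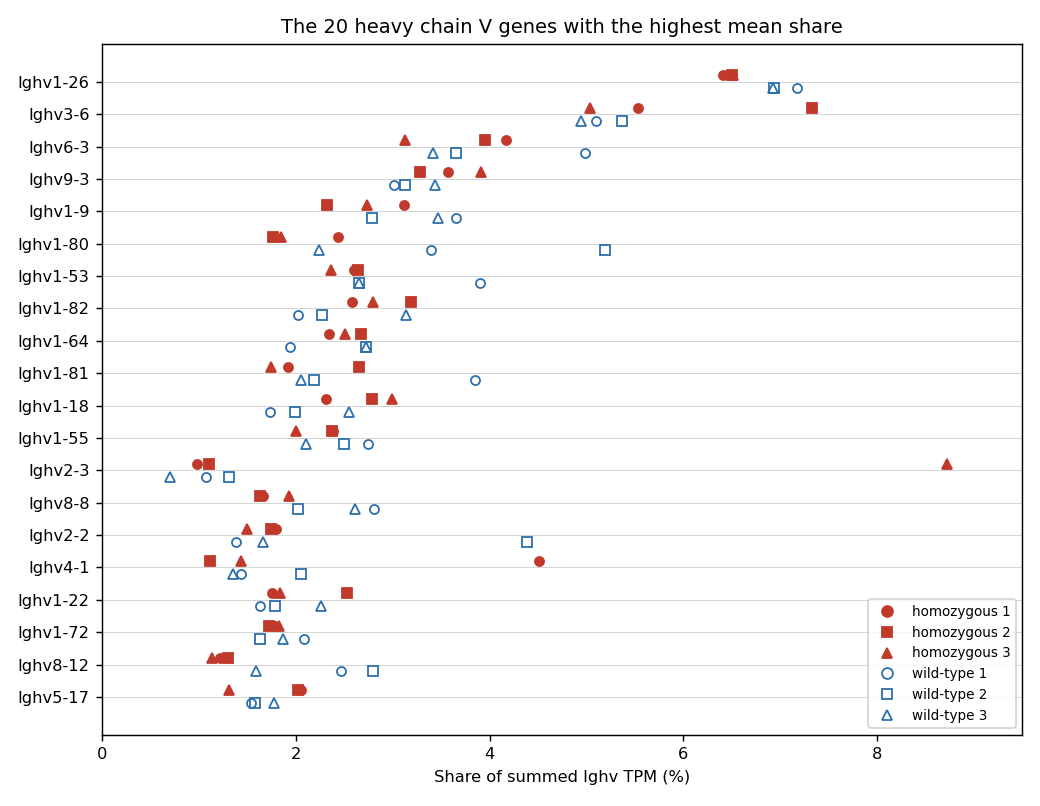
Share of summed Ighv TPM (%) of the 20 heavy chain V genes with the highest mean share, in homozygous libraries (filled red, upper of each pair) and wild-type libraries (open blue), with 1 symbol per library number. Most genes overlap between groups, while Ighv2-3 in homozygous 3 (8.72%), Ighv1-80 in wild-type 2 (5.19%) and Ighv4-1 in homozygous 1 (4.51%) stand apart as single libraries.

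Across the 109 members that were tested, log2 shares (with 0.01% added) correlated with a Pearson r of 0.945 to 0.970 between a homozygous and a wild-type library, 0.956 to 0.962 between homozygous libraries and 0.954 to 0.958 between wild-type libraries. This describes likeness across genes that share their libraries, and genes are not independent replicates. The ranges within and between genotypes overlapped.

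The question for single genes was asked with limma on log2(TPM + 1), fitted on all 12219 genes with at least 1 TPM in 3 libraries, with Benjamini-Hochberg adjustment over all of them and a call at an adjusted p under 0.05. The level fit used TPM. The usage fit replaced each Ighv value by its share of V transcripts, scaled to the mean V sum, so that it compares which V genes are used and not how much V transcript a library holds. In the level fit 8 of the 109 tested members were called, 5 higher and 3 lower, which is 7.34% of them, whereas 51.0% of all genes tested were called (38.4% higher, 12.6% lower). In the usage fit 9 were called, 6 higher and 3 lower, or 8.26%, beside 51.1% of all genes in that fit (38.5% higher, 12.6% lower). The 2 fits shared 5 called members. The share of V genes called lay below that of the table as a whole, and their values were also noisier: the median SE was 0.23 for the members and 0.11 for all genes, and the median absolute log2 change was 0.20 and 0.34. In the usage fit 87 of the 109 members had an absolute log2 change under 0.5. The count rests on single libraries: the level fit called 2 members without wild-type 2, 5 without homozygous 2 and 14 without wild-type 3, and the usage fit 5 without homozygous 3 and 29 without wild-type 3. Over all 12219 genes the level fit then called 4996, 5015 and 6730, and the usage fit 4545 and 6750. With all libraries the median log2 change of the members was 0.05 in level and 0.13 in usage. With wild-type 1 and 2 left out it was 0.13 and -0.04.

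The median log2 change over all genes was 0.18 as deposited and -0.008 after TMM scaling. For the members it was 0.05 as deposited, below that of all genes, and -0.16 after TMM scaling. With TMM scaling the level fit still called 8 members, but 0 higher and 8 lower, and over all genes it called 2930 higher and 2756 lower in place of 4698 and 1539. Shares within the V transcripts are not affected by such scaling.

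The groups did not overlap in TPM for 8 of the 109 tested members (5 higher, 3 lower in homozygous), or 7.34%, where the share over all genes was 61.4% (44.5% higher, 16.9% lower). In shares they did not overlap for 17 members (10 higher, 7 lower), or 15.6%, beside 61.4% of all genes (44.5% higher, 16.9% lower).

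**Figure D3:**
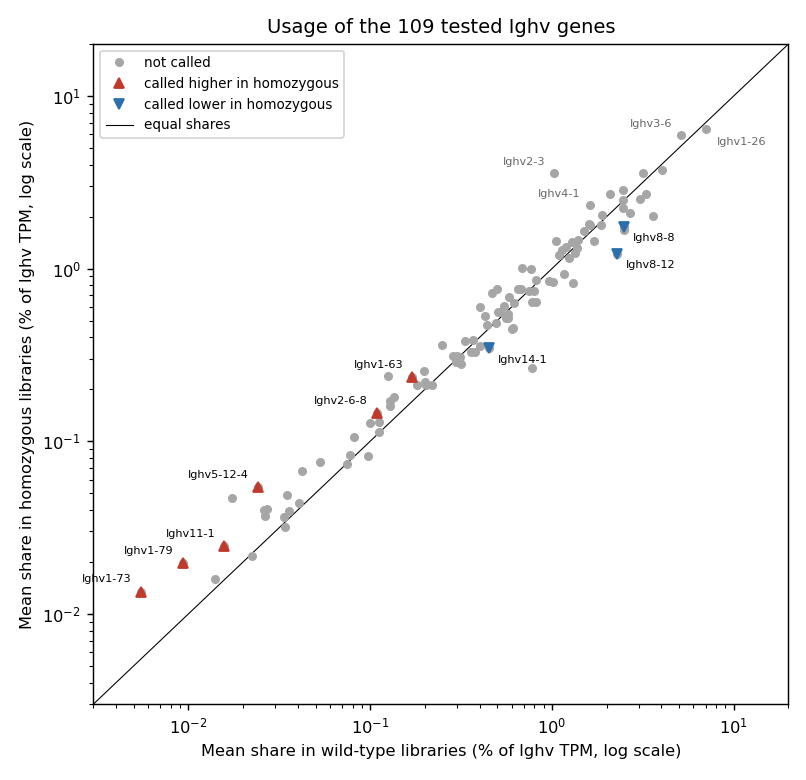
Mean share of each of the 109 tested Ighv genes in homozygous libraries (vertical, % of Ighv TPM, log scale) against wild-type libraries (horizontal, log scale), with called genes of the usage fit as red upward (6 higher) and blue downward (3 lower) triangles and equal shares as a line. Of the 6 called higher, all held under 0.3% in each group, whereas Ighv8-8 and Ighv8-12, called lower, are among the 20 most used genes.

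Ighv8-8 (115294066 to 115294362) was lower in homozygous B cells in both fits. It was at 290, 310 and 289 TPM in homozygous 1 to 3, against 571, 391 and 395 TPM in wild-type 1 to 3, which is 1.67%, 1.63% and 1.93% of V transcripts against 2.80%, 2.03% and 2.61%. The 3 homozygous libraries lay close together and all below the wild-type libraries. The log2 change was -0.59 in level (SE 0.14, adjusted p = 0.0101, limma) and -0.50 in usage (SE 0.13, adjusted p = 0.0116, limma). The call held in every alternative run that keeps at least 2 libraries in each group, including TMM scaling. Against wild-type 3 alone the usage change was -0.59 (adjusted p = 0.0142, with the spread taken from the homozygous libraries).

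Ighv8-12 (115647945 to 115648245), of the same family and also in the distal part, was at 212, 248 and 170 TPM in homozygous 1 to 3, against 501, 540 and 241 TPM in wild-type 1 to 3. Its shares were 1.22%, 1.30% and 1.13% in homozygous and 2.46%, 2.80% and 1.59% in wild-type libraries. The shares did not overlap, and wild-type 3 was the nearest to the homozygous libraries. It fell in usage (log2 change -0.87, SE 0.21, adjusted p = 0.0135, limma) and missed the threshold in level (adjusted p = 0.0792). Without homozygous 3 the adjusted p was 0.0521, and against wild-type 3 alone the usage change was -0.39 (adjusted p = 0.0430).

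Ighv8-5 (115067560 to 115067860), the third well expressed gene of this family, was at 100, 62.6 and 68.0 TPM in homozygous 1 to 3, against 109, 124 and 100 TPM in wild-type 1 to 3. It fell in level (log2 change -0.55, SE 0.18, adjusted p = 0.0400, limma), by a gap between the groups of under 0.1 TPM, and did not pass the test in usage (adjusted p = 0.102). The level call was lost without any library other than homozygous 1: the adjusted p was 0.0927 without homozygous 2, 0.122 without homozygous 3, 0.0921 without wild-type 1, 0.122 without wild-type 2 and 0.0565 without wild-type 3. Without wild-type 1 and 2 together the log2 change was -0.41 (adjusted p = 0.365).

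Ighv14-1 (113931953 to 113932246) was the other member called lower, in both fits. It was at 49.7, 74.3 and 53.7 TPM in homozygous 1 to 3, against 94.2, 76.2 and 73.5 TPM in wild-type 1 to 3. Homozygous 2 lay between the wild-type libraries in TPM, while in shares (0.286%, 0.389% and 0.359% against 0.463%, 0.395% and 0.486%) the groups did not overlap. The log2 change was -0.46 in level (SE 0.16, adjusted p = 0.0480, limma) and -0.38 in usage (SE 0.13, adjusted p = 0.0328, limma). The usage call was lost without homozygous 1 (adjusted p = 0.0851), homozygous 3 (0.0630), wild-type 1 (0.0960) or wild-type 3 (0.0860), and the level call without each of these and without wild-type 2 (adjusted p between 0.0603 and 0.143). Without wild-type 1 and 2 together neither call held (log2 change -0.33 in level, adjusted p = 0.341, and -0.50 in usage, adjusted p = 0.0698).

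The members called higher were all little used. Ighv1-63 (115495625 to 115496058) was at 37.8, 43.7 and 39.2 TPM in homozygous 1 to 3, against 39.7, 28.5 and 25.7 TPM in wild-type 1 to 3. Its share was 0.217%, 0.229% and 0.262% in homozygous and 0.195%, 0.148% and 0.170% in wild-type libraries, without overlap. It rose in usage (log2 change 0.46, SE 0.12, adjusted p = 0.0101, limma), and this call held in all 16 alternatives run, 1 of them against wild-type 3 alone. Its level did not pass the test (adjusted p = 0.0704).

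Ighv5-2, the V gene nearest to the D segments and known as VH81X for its frequent early rearrangement, was at 62.3, 60.9 and 61.0 TPM in homozygous 1 to 3, against 34.1, 47.1 and 50.1 TPM in wild-type 1 to 3. The homozygous values were nearly equal and all above the wild-type values. It rose in level (log2 change 0.50, SE 0.13, adjusted p = 0.0136, limma) but did not pass the test in usage (adjusted p = 0.100), where homozygous 2 (0.319%) lay below wild-type 3 (0.331%). The level call was lost with TMM scaling (log2 change 0.29, adjusted p = 0.106), without homozygous 1 (adjusted p = 0.0519) and without wild-type 1 and 2 (adjusted p = 0.0942).

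The other 6 members called higher in either fit were under 30 TPM in every library. Ighv11-1 was at 4.06, 4.77 and 3.81 TPM in homozygous 1 to 3, against 2.73, 2.71 and 2.99 TPM in wild-type 1 to 3, and was called in both fits (log2 change in usage 0.51, SE 0.16, adjusted p = 0.0235, limma). Ighv1-73 was at 2.72, 2.30 and 1.91 TPM in homozygous, against 0.616, 0.341 and 1.75 TPM in wild-type libraries, and was also called in both fits. For both genes the groups did not overlap, although Ighv1-73 in wild-type 3 came close to homozygous 3. Ighv1-79 (3.75, 2.50 and 3.65 TPM in homozygous, against 2.68, 1.57 and 1.00 TPM in wild-type libraries) was called in both fits with overlapping groups. Ighv1-70 (9.54, 12.9 and 12.1 TPM in homozygous, against 7.49, 4.99 and 9.66 TPM in wild-type libraries) was called in level, again with overlap. Ighv5-12-4 and Ighv2-6-8 were called in usage, at 5.37 to 14.5 TPM and 20.4 to 28.9 TPM in homozygous libraries and at 2.64 to 6.39 TPM and 17.0 to 20.9 TPM in wild-type libraries. The call in usage was lost for Ighv11-1 without homozygous 2 or 3 or wild-type 1 or 2 (adjusted p between 0.0653 and 0.0944), for Ighv1-73 and Ighv2-6-8 without any library but wild-type 3 (0.0759 to 0.118 and 0.0691 to 0.141), for Ighv1-79 without homozygous 1 or 3 or wild-type 2 or 3 (0.0549 to 0.0871), and for Ighv5-12-4 without homozygous 1 or 2 or wild-type 2 or 3 (0.0522 to 0.111). The level call of Ighv1-70 was lost without homozygous 2 or 3 or wild-type 1 or 2 (0.0884 to 0.126). Without wild-type 1 and 2 together the usage change of Ighv1-73 was 0.14, of Ighv2-6-8 0.11, of Ighv11-1 0.25 and of Ighv5-12-4 1.29. The level change of Ighv1-70 was then 0.22, below its 0.61 with all libraries. That of Ighv1-79 was 1.09, above its 0.67 with all libraries.

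By family, the clearest difference lay in Ighv8. This family held 3.71%, 3.65% and 3.87% of V transcripts in homozygous 1 to 3, against 6.03%, 5.64% and 5.22% in wild-type 1 to 3, with means of 3.75 ± 0.111% and 5.63 ± 0.406% (SD, n = 3 each). The groups did not overlap and the ratio of the means was 0.665. Its 3 genes of highest mean share, Ighv8-5, Ighv8-8 and Ighv8-12, together held 3.46%, 3.25% and 3.52% in homozygous and 5.80%, 5.47% and 4.87% in wild-type libraries. The other 7 members held 0.257%, 0.401% and 0.348% in homozygous and 0.230%, 0.173% and 0.355% in wild-type libraries, and these overlapped. The 3 genes were set apart with these values known and are the members of the family called lower, so the split adds no separate evidence. Families follow from the first number of the symbol, and their sums were described without a test, so no p is given.

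Family Ighv1, with 60 of the 120 members, held 52.8%, 53.0% and 52.2% in homozygous 1 to 3, against 58.0%, 54.6% and 56.6% in wild-type 1 to 3. These values did not overlap, and the ratio of the means was 0.934. Shares are parts of the same sum, so Ighv2-3 lowers all other shares of homozygous 3. It held 8.72% there and 0.703% to 1.31% elsewhere. The lack of overlap for family Ighv1 depends on that gene's part in the sum. The lower share was not spread evenly: 25 of the 60 members had a lower mean share in homozygous libraries. Family Ighv2 held 6.78%, 6.52% and 13.4% in homozygous and 4.94%, 8.13% and 5.24% in wild-type libraries, and without its gene Ighv2-3 it held 5.80%, 5.43% and 4.70% and 3.86%, 6.82% and 4.53%. Family Ighv3 held 7.43%, 8.88% and 6.77% in homozygous and 6.40%, 7.00% and 6.35% in wild-type libraries, and family Ighv5 7.04%, 8.11% and 6.22% and 5.50%, 6.51% and 7.00%. These 3 families overlapped between groups, as did Ighv6, Ighv9 and Ighv14.

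**Figure D4:**
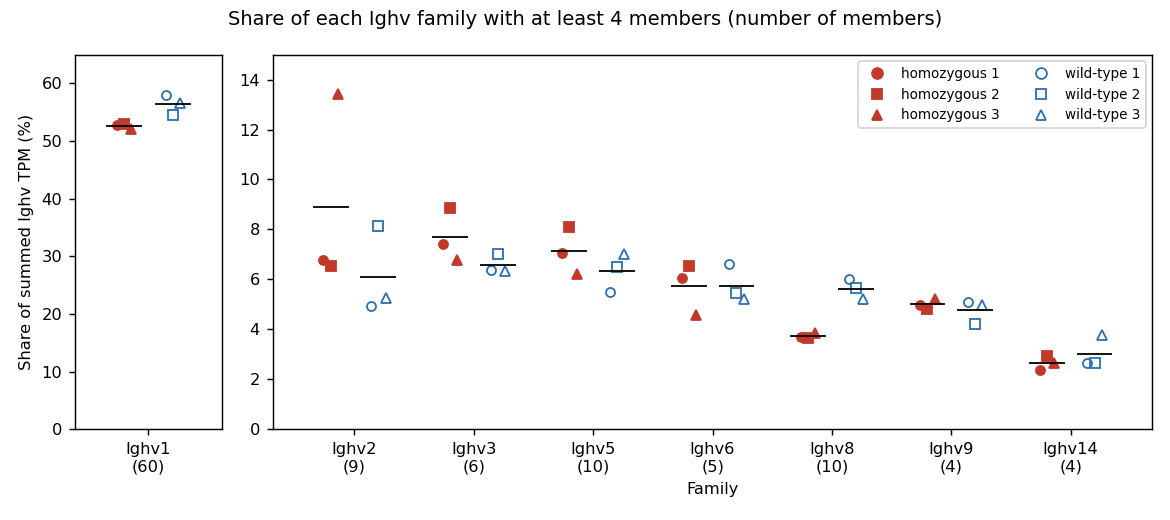
Share of summed Ighv TPM (%) held by each family with at least 4 members (number of members in brackets), with homozygous libraries filled red at the left and wild-type libraries open blue at the right of each pair, and lines at the group means. Ighv8 (3.65% to 3.87% against 5.22% to 6.03%) and Ighv1 (52.2% to 53.0% against 54.6% to 58.0%) are the 2 families shown whose groups do not overlap. Ighv2-3, at 8.72% in homozygous 3, lowers that library's other shares, and the separation of Ighv1 depends on this.

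Position in the locus was described by cutting the 120 members into 4 blocks of 30 in their order from the D segments. The most distal block, from 115386707 to 116009954, held 20.3%, 21.2% and 20.3% of V transcripts in homozygous 1 to 3, against 24.3%, 25.0% and 22.5% in wild-type 1 to 3, without overlap. Without its 5 members of family Ighv8 it held 19.0%, 19.9% and 19.2% in homozygous and 21.8%, 22.2% and 20.9% in wild-type libraries, still without overlap. In homozygous 3 these distal shares are lowered by Ighv2-3, a proximal gene at 8.72% in that library. The most proximal block, from 113578504 to 114109430, held 22.2%, 19.7% and 24.9% in homozygous and 16.3%, 20.7% and 18.4% in wild-type libraries. It was higher on average in homozygous libraries, but homozygous 2 lay below wild-type 2. The 24.9% of homozygous 3 includes the 8.72% of Ighv2-3. The blocks between held 28.9%, 30.6% and 26.1%, and 28.6%, 28.5% and 28.6%, in homozygous libraries, against 28.7%, 26.2% and 29.0%, and 30.8%, 28.1% and 30.1%, in wild-type libraries. Both overlapped.

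**Figure D5:**
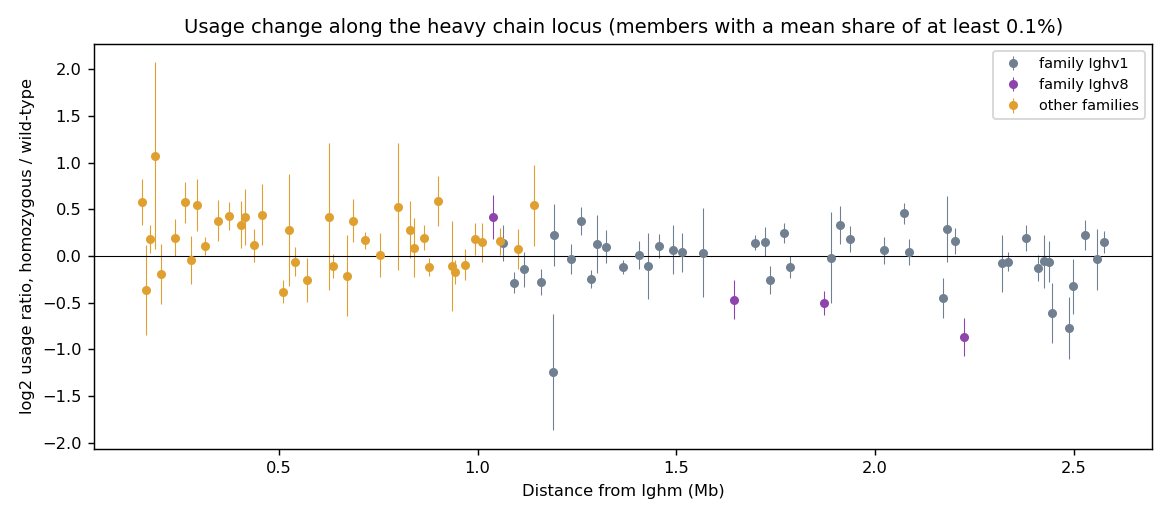
Log2 ratio of usage, homozygous over wild-type, against distance from Ighm (Mb) for the 88 tested members with a mean share of at least 0.1%, with SE as bars and colours for families Ighv1, Ighv8 and others. The 3 purple points below 0 are Ighv8-5, Ighv8-8 and Ighv8-12, and the members on either side of them scatter about 0.

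Some members were high in 1 library. They were picked after the values were seen, as members with at least 50 TPM whose share in 1 library was at least 2 times the median of the other 5, and they get no test as a set. Of 76 members with at least 50 TPM in some library, 14 met this, with 3, 3 and 1 in homozygous 1 to 3 and 3, 4 and 0 in wild-type 1 to 3. Ighv2-3 (113611184 to 113611476) stood farthest out. It was at 1304 TPM in homozygous 3, against 171 and 210 TPM in homozygous 1 and 2 and 219, 253 and 106 TPM in wild-type 1 to 3. Its share in homozygous 3 was 8.72%, the highest of any member in any library, and 0.703% to 1.31% in the other 5, a ratio of 8.10 to their median. The value rests on 6775 reads. Ighv2-3 did not pass the usage test between groups (log2 change 1.08, SE 1.00, adjusted p = 0.414, limma), and without homozygous 3 its log2 change was 0.06.

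Ighv4-1 was at 784 TPM in homozygous 1, with a share of 4.51%, against 1.12% and 1.43% in homozygous 2 and 3 and 1.35% to 2.05% in wild-type libraries. Ighv7-4 was at 93.3 TPM in homozygous 2 and at 13.2 to 27.3 TPM elsewhere. Ighv1-11 was at 303 TPM in wild-type 1, where it held 1.49%, and at 0.223% to 0.508% elsewhere. Such single-library highs were thus found in both genotypes. The remaining 10 were Ighv2-9 and Ighv13-2 in homozygous 1, Ighv2-6 and Ighv5-16 in homozygous 2, Ighv1-78 and Ighv1-47 in wild-type 1, and Ighv2-2, Ighv1-80, Ighv1-58 and Ighv8-12 in wild-type 2. The largest of these shares were 5.19% for Ighv1-80 and 4.38% for Ighv2-2. Whether a high member stands for 1 clone of B cells cannot be read from V gene levels alone.

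Genes with a known specificity in mice were not called with all 6 libraries. Ighv11-2 and Ighv12-3 encode the phosphatidylcholine-binding heavy chains typical of B-1 cells. Ighv11-2 was at 84.5, 54.7 and 58.5 TPM in homozygous 1 to 3, against 79.9, 118 and 13.6 TPM in wild-type 1 to 3, so that the wild-type libraries spread far wider than the homozygous ones and enclosed them. Its usage change was 0.42 (SE 0.79, adjusted p = 0.684, limma), and -0.37 without wild-type 3 (adjusted p = 0.366). Against wild-type 3 alone it was 2.01 and called (adjusted p = 0.0166), with the spread taken from the homozygous libraries. Ighv12-3 was at 48.5, 57.8 and 38.2 TPM in homozygous, against 61.6, 73.5 and 40.4 TPM in wild-type libraries (usage change -0.17, SE 0.13, adjusted p = 0.294, limma). Ighv1-72, used in responses to the hapten NP, held 1.78%, 1.72% and 1.83% in homozygous and 2.08%, 1.63% and 1.87% in wild-type libraries, with the homozygous values inside the wild-type range. Ighv1-85, near the distal end, was at 99.0, 94.0 and 94.2 TPM in homozygous, against 93.3, 92.9 and 87.4 TPM in wild-type libraries, differing by little. Ighv7-1, the V gene of phosphorylcholine-binding antibodies, has no row in the table used.

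The 11 members that were not tested had at most 2.25 TPM in any library. They were Ighv7-2, Ighv16-1, Ighv6-7, Ighv1-16, Ighv1-19-1, Ighv1-24, Ighv1-62-1, Ighv8-9, Ighv8-13, Ighv8-14 and Ighv1-86. Ighv1-62-1 was listed at 0 in all 6 libraries.

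The segments and constant genes joined to the V genes were compared in the same level fit. Over all genes tested, that fit called 38.4% higher and 12.6% lower. Of 4 J segments 1 was called: Ighj4 was at 1894, 2105 and 2286 TPM in homozygous 1 to 3, against 1382, 1320 and 1308 TPM in wild-type 1 to 3, without overlap (log2 change 0.64, SE 0.09, adjusted p = 0.000873, limma). This call held in all 15 alternatives, with a log2 change of 0.43 after TMM scaling and 0.67 against wild-type 3 alone. Ighj1, Ighj2 and Ighj3 overlapped between groups and were not called. Of 9 D segments tested, 1 was called, Ighd3-2, at 100, 102 and 102 TPM in homozygous, against 69.5, 42.7 and 78.4 TPM in wild-type libraries (adjusted p = 0.0358, limma). The counting errors given above for a gene of 294 bp do not hold for the shorter D segments. At the same TPM these rest on fewer reads, and their reads were not recovered. After TMM scaling 0 D segments were called, where 2930 of all 12219 genes were called higher and 2756 lower.

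Of 7 heavy chain constant genes tested, 1 was called higher and 0 lower, beside 38.4% and 12.6% of all genes. After TMM scaling 0 of them were called. Ighd, which encodes the IgD constant region of mature naive B cells, was at 2943, 2711 and 2953 TPM in homozygous 1 to 3, against 2026, 1805 and 2491 TPM in wild-type 1 to 3 (log2 change 0.46, SE 0.12, adjusted p = 0.0129, limma). The call was lost after TMM scaling (log2 change 0.25, adjusted p = 0.125), without homozygous 3 (adjusted p = 0.0511) and without wild-type 1 and 2 (adjusted p = 0.195). Igha, the constant gene of IgA, was at 296, 321 and 72.7 TPM in homozygous, against 882, 1739 and 156 TPM in wild-type libraries and was not called, with the lowest value of each group in library 3. Jchain, which joins secreted IgM and IgA, was at 638, 718 and 473 TPM in homozygous, against 876, 1125 and 407 TPM in wild-type libraries, and was not called (adjusted p = 0.599). Among the light chains, 0 of 4 constant genes were called higher and 1 lower, beside the same shares of all genes. The 1 called was Iglc3, at 1446, 1344 and 1458 TPM in homozygous, against 1620, 1689 and 1876 TPM in wild-type libraries (log2 change -0.29, SE 0.09, adjusted p = 0.0251, limma). Of 100 kappa V genes tested, 1 was called higher and 10 lower, and of 3 lambda V genes 1 was called higher and 0 lower, beside 38.4% of all genes called higher and 12.6% lower. After TMM scaling the counts were 0 higher and 24 lower for kappa and 0 and 0 for lambda. Over all 12219 genes they were then 2930 higher and 2756 lower. With all libraries the median log2 change was -0.22 for kappa and -0.05 for lambda. Without wild-type 1 and 2 it was -0.07 and 0.08.

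Lists of genes that act on the heavy chain locus or mark the cells that make most of its RNA were counted in the level fit, beside the 38.4% of all genes called higher and 12.6% called lower. After TMM scaling, 2930 of all 12219 genes were called higher and 2756 lower. Of 16 factors that bind the locus, 13 were higher and 0 lower (median log2 change 0.65, and 0.48 without wild-type 1 and 2), and 11 were higher and 1 lower after TMM scaling. Among them Pax5, which holds B cell identity and is needed for distal V gene use, was at 353, 358 and 363 TPM in homozygous, against 208, 167 and 254 TPM in wild-type libraries, and Irf4, a factor of B cell activation and plasma cells, at 212, 214 and 205 TPM and 67.7, 66.3 and 83.6 TPM. For both genes the groups did not overlap. Of 16 genes of recombination, class switching and hypermutation, 7 were higher and 0 lower, but 5 higher and 2 lower after TMM scaling. Their median log2 change was 0.12, and 0.23 without wild-type 1 and 2. Rag1, the recombinase, was at 1.70, 2.99 and 1.71 TPM in homozygous, against 0.860, 0.696 and 0.376 TPM in wild-type libraries, a low level in both.

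Of 15 plasma cell genes, 4 were higher (Irf4, Pou2af1, Slamf7 and Edem1) and 1 lower (Fkbp11), and Sdc1, Prdm1 and Xbp1, which define plasma cells, were not called. After TMM scaling 2 were higher and 2 lower. The median log2 change of the plasma cell genes was 0.10, and 0.35 without wild-type 1 and 2. Of 15 genes of B-1 cells, 1 was higher (Ctla4) and 7 lower, with a median log2 change of -0.52, and of -0.35 without wild-type 1 and 2. Spn, which encodes CD43, was at 6.77, 9.36 and 6.76 TPM in homozygous, against 22.0, 28.1 and 15.5 TPM in wild-type libraries. The part of other cells in the Spn level was not tested. Not all genes of this list were lower. Cd5 overlapped between groups and was not called (log2 change 0.06, adjusted p = 0.736, limma). Bhlhe41 was higher in homozygous libraries without overlap but was not called (log2 change 0.39, adjusted p = 0.0737, limma). Among the 7 lower genes, S100a6, Vim and Ahnak are also expressed in myeloid cells, whose markers were lower in homozygous libraries too, and the part of those cells in this count was not tested. After TMM scaling the B-1 counts were 1 and 8. Of 10 marginal zone genes, 3 were higher and 4 lower, but 1 higher and 6 lower after TMM scaling. Their median log2 change was -0.17, and -0.23 without wild-type 1 and 2. Of 9 B cell genes, 6 were higher and 1 lower, with 3 higher and 2 lower after TMM scaling. Their median log2 change was 0.41, and 0.17 without wild-type 1 and 2.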

How the data were processed

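RNA-seq values of the 6 young libraries were used. They are TPM computed by the authors and deposited as 1 table, each library summing to 1000000; the submitters' processing notes name the build mm10 and, without their roles, the tools MACS2 2.2.0, Bowtie2 2.3.4.1 and STAR 2.4.0.1. Libraries were made with TruSeq RNA kit v2, per the labels' protocols. Not given in the sources used here are the quantification tool, annotation, strandedness and treatment of reads that match several genes, so near-identical V genes may share reads. From 27179 rows, 26 whose names had become dates and 887 without a name (4.44% to 9.36% of TPM) were left out. All other values were computed from this table: shares of summed Ighv TPM, and limma 3.58.1 in R 4.3.3 (trend and robust, two-sided) on log2(TPM + 1). The pseudocount understates changes of low genes. Reads were recovered by searching, for each V gene, a length between 200 and 600 bp that turns its TPM into whole numbers in all libraries; 95 of 120 lengths equalled RefSeq's. Since other genes' lengths were not recovered, no count test was run. Counting errors cover counting alone. In simulated data for this comparison (12219 genes, 200 changed) the fit recovered 98.0% at a log2 change of 1 and 96.5% at 2, and 5.31% and 6.76% of its calls were false. The changed genes excluded the lowest expressed ones, and far more genes, 6237, were called in the data. Smaller changes were not simulated, while 87 of 109 members had a usage change under 0.5. These rates therefore do not describe the Ighv calls.

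The genes named are the 10 of highest mean share, those above 5% in a library, those called whose groups do not overlap (at most 8 per direction) and fixed genes of known specificity or position; other called members were added. The members, lists and rules were chosen with earlier results of these data known. The alternatives were other pseudocounts and filters, TMM scaling, limma without trend or robust, library weights, the replicate number as a block, and leaving out libraries. The numbers do not pair the libraries by the labels. Of the chromatin samples, 3 have a title and genotype that disagree and were put in no group, and none was analysed here. Sequences of the V genes were not used here.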

Additional observations from a re-analysis of the deposited data

How the results depend on the processing

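The level fit called 8 members (3 with no filter on low values, 25 with library weights, 2 to 14 with 1 library left out), and the usage fit 9 (4 with no filter, 42 with library weights, 5 to 29 with 1 library left out). With the replicate number as a block they called 17 and 18. Over all 12219 genes the main fits called 6237 and 6239. Library weights gave 8281 and 8307 over all genes, and the replicate block 6631 and 6637. With 1 library left out it was 4553 to 6730 in level and 4545 to 6750 in usage. With no filter 5740 and 5741 of 21353 genes were called. Same-numbered libraries did not deviate together in every case (r = -0.10 for number 1, 0.24 for number 2 and 0.32 for number 3), and homozygous 1 correlated best with wild-type 2, so the numbers were not taken as pairs. Among 7 heavy chain constant, 4 light chain constant and 15 plasma cell genes tested, 7 were called, beside 51.0% of all genes. With 1 library left out 4 to 12 were called (4 without homozygous 3, 12 without wild-type 3), an alternative chosen after seeing the data. Over all 12219 genes these 2 runs called 4553 and 6730. The log2 ratio of summed Ighv TPM was -0.09, but 0.18 without wild-type 1 and 2 and -0.30 after TMM scaling. That of the effective number was 0.02, but -0.055 without wild-type 1 and 2 and -0.035 for the inverse Simpson index. In the number of members with at least 10 TPM, in place of shares, families Ighv1, Ighv2 and Ighv8 gave log2 ratios of 0.031, 0.00 and 0.21, against -0.10, 0.55 and -0.59 in shares. Usage of Ighv11-2 turned to -0.13 with library weights and -0.37 without wild-type 3 (-0.37 to 0.98 with 1 library left out), and that of Ighv12-3 to 0.057 without wild-type 1 and 2. The cause of these shifts was not tested. Shares of recovered reads, also chosen after seeing the data, moved no family share, leading share or effective number beyond the spread between libraries. Ighv8-8 (both fits), Ighv1-63 (usage) and Ighj4 kept direction and call in every alternative, of which the one without wild-type 1 and 2 takes its spread from the homozygous libraries alone. With 3 libraries a group and lower depth in the homozygous libraries, V genes under 10 TPM carry the most error among the V genes.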
